A study of Mus musculus with 8 samples.

Results

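B cells that had switched on Cγ1Cre, marked by YFP, were compared with all splenic B cells of control mice, in which Eif3e was intact. The cells were chosen by their UMIs (unique molecular identifiers) of B and T cell genes. A cell was taken as a B cell when it had more than 100 genes, at most 10% mitochondrial UMIs, at least 3 UMIs of Cd79a, Cd79b and Ms4a1 together and none of Cd3d, Cd3e or Cd3g. This gate kept 32266 of the 42053 control cells that passed the gene and mitochondrial filters, out of 83704 such cells in the series. The mice were 2 months old C57BL/6J animals carrying Cγ1Cre and the Rosa26-YFP LSL reporter. The cKO mice of the series, littermates of the controls, carried Eif3e fl/fl in addition. Spleens of 2 to 3 mice were pooled for each batch and genotype per the series' design text, which has both sorts follow from that pool. The tissue label is spleen, while the extraction protocol names spleen and lymph nodes, so a part from lymph nodes cannot be told apart. From each of 2 batches, scbatch1 and scbatch2, 1 library was made from sorted YFP+ cells and 1 from total live cells. Total cells were not sorted against YFP, so they also held the marked cells at their natural share. Wherever a pair of values is given, scbatch1 comes first.

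Cγ1Cre is driven by transcription through the Ig γ1 constant gene (Ighg1), which starts when an activated B cell receives T cell help and IL-4. YFP is then expressed by the cell and by its progeny for life, so the label records a past event and not the present state of the cell. B cells activated in this way may enter germinal centres (GCs), where class switching and somatic hypermutation change their Ig genes, and leave as memory B cells or plasma cells (PCs).

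The gate kept 8429 of 9276 and 11340 of 11652 cells in the YFP+ libraries (90.9% and 97.3%). In the total libraries it kept 5544 of 9566 and 6953 of 11559 cells (58.0% and 60.2%). Gated cells held a median of 7021 and 6368 UMIs in YFP+ and 5862 and 4648 UMIs in total libraries, and the sums per library ran from 39248501 to 103440892 UMIs. The genes that chose the cells were present in each library: Cd79a was at 1289 and 1589 CPM (counts scaled to library size) in YFP+ and at 1679 and 2126 CPM in total cells. These genes set the gate, so their levels are a description only. At the edge of the gate, 25 to 65 cells per library had exactly 3 UMIs of its genes and 51 to 60 cells were 1 UMI short. Neither YFP nor Cre was among the features, so the sort was not checked by its reporter. The YFP+ libraries also held 239 and 42 cells with at least 3 Cd3 UMIs and none of the gate genes. Total libraries held 1764 and 1686 such cells. How many gated cells of the YFP+ libraries were unmarked was not tested. Marked cells below means all gated cells of these libraries. Any pair of the 4 libraries shared 55 to 93 cell barcodes.

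GC B cells, memory B cells, PCs and a T-bet+ class were more frequent among YFP+ cells than among total B cells. Unsupervised clusters were named by marker lists, and each name is read as "like". GC B-like cells made up 19.0% and 29.5% of the gated YFP+ cells but 0.902% and 0.475% of total B cells. The memory B-like share was 9.10% and 8.40% in YFP+ libraries, compared with 0.289% and 0.403% in total libraries. For PC-like cells it was 9.57% and 8.84%, compared with 0.722% and 0.417%. In all these classes both YFP+ libraries lay above both total libraries. The log2 differences were 5.11, 4.57 and 4.0, by edgeR's quasi-likelihood test on cell counts with batch as a term (edgeR adjusted p over 14 classes = 8.94e-06, 1.28e-05 and 1.99e-05).

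T-bet+ B-like cells, led by Adgre1, Zeb2 and the integrin Itgam, made up 10.7% and 7.59% of YFP+ and 1.06% and 0.604% of total cells, a log2 difference of 3.45 (edgeR adjusted p = 5.68e-05). B1-like cells followed at 10.1% and 8.16% against 3.82% and 3.84%, a log2 difference of 1.24 (edgeR adjusted p = 0.038). None of the B1 markers was among that cluster's 10 leading genes. A cluster led by Cxcl10, Fabp5, Fscn1 and Batf took no name and was also higher, at 2.31% and 2.83% against 1.37% and 0.834% (edgeR adjusted p = 0.0391). The call for this unnamed cluster was lost without the total library of scbatch2 (log2 difference 0.90) and without either YFP+ library (1.35 and 1.06). Those fits also had no batch term.

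**Figure D1:**
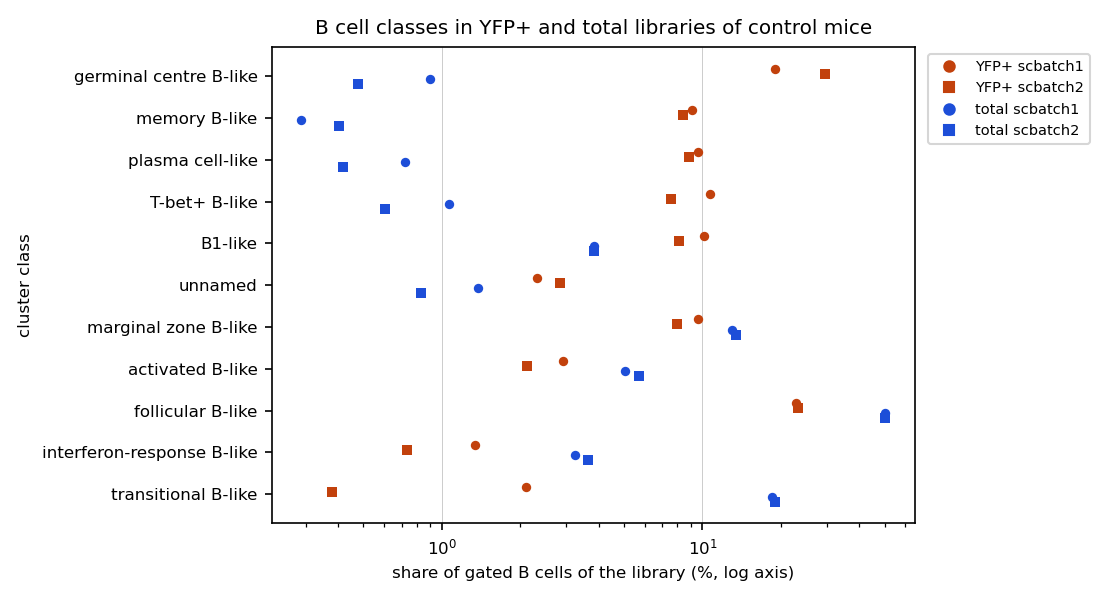
Share of gated B cells (percent, log axis) falling in each of 11 classes, with 1 point per library, red for YFP+ and blue for total, circles for scbatch1 and squares for scbatch2. GC, memory, PC and T-bet+ B-like cells sit at 7.59% to 29.5% in YFP+ libraries and at 0.289% to 1.06% in total libraries, and transitional B-like cells show the opposite order.

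Transitional, interferon-response, follicular and activated B-like cells were less frequent among YFP+ cells. Transitional B-like cells, the recent arrivals from bone marrow, made up 2.10% and 0.379% of YFP+ and 18.5% and 19.0% of total B cells (log2 difference -4.30, edgeR adjusted p = 1.71e-05). Interferon-response B-like cells fell from 3.25% and 3.64% to 1.34% and 0.732% (log2 difference -1.77, edgeR adjusted p = 0.00657). Follicular B-like cells made up 22.8% and 23.3% of YFP+ against 50.3% and 50.4% of total cells (log2 difference -1.13, edgeR adjusted p = 0.0461). Activated B-like cells were at 2.91% and 2.12% against 5.05% and 5.72% (log2 difference -1.11, edgeR adjusted p = 0.0481). In each of these classes both YFP+ libraries lay below both total libraries.

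Marginal zone B-like cells were at 9.62% and 8.01% of YFP+ and 13% and 13.4% of total cells, which did not pass the test (log2 difference -0.59, edgeR adjusted p = 0.255). It passed without the block (edgeR adjusted p = 0.0444). Without the YFP+ library of scbatch1 or scbatch2 the log2 difference was -0.72 and -0.45, in fits that also had no block. Shares sum to 100%, so a fall in one class and a rise in others cannot be told apart. Scaled by the trimmed mean over classes, 9 of 14 classes were no longer called, GC B-like (5.79, edgeR adjusted p = 0.0512) and transitional B-like (-3.62, 0.0915) among them, and the marginal zone value turned to 0.11. Without deep cells and cells with UMIs of other cell types, calls were lost for GC (6.24, edgeR adjusted p = 0.0896), transitional (0.142), follicular (0.0937), activated (0.165) and interferon-response B-like cells (0.17) and for the unnamed cluster (0.0678). That filter dropped 4282 of 8429 and 5985 of 11340 YFP+ and 2656 of 5544 and 3447 of 6953 total B cells. It left 225 and 531 YFP+ and 3 and 0 total GC B-like cells, so few cells stand behind the GC value. Of YFP+ PC-like cells it left 108 of 807 and 137 of 1003. The filter's genes of other cell types included Adgre1, which led the T-bet+ B-like cluster. It thus also dropped cells of the classes tested. The calls for follicular, activated and B1-like cells were lost when either total library was left out, in fits that also had no block. The widest exact 95% binomial interval of any class share reached 1.32 percentage points to either side, which covers counting error only.

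The follicular B-like class was not the same mixture in both sorts. A cluster with Maml3 and Cd55 among its leading genes held 773 and 705 of its YFP+ cells and 1923 and 2541 of its total cells. A cluster led by Fcer2a and Cnn3 held 1148 and 1933 of its YFP+ cells and 866 and 963 of its total cells. This cluster was the shallower, with a median of 3520 UMIs per cell against 4407. Over the class, YFP+ cells held a median of 3966 and 2806 UMIs and total cells 5198 and 4178. The part of depth in this split was not tested. The GC B-like class was made of 4 clusters, of which 3 were led by histone, S phase or mitosis genes. The one led by Rgs13, S1pr2 and Mybl1 alone held 724 and 1297 YFP+ cells and 23 and 12 total cells.

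Summed over all gated B cells, 3805 of 15652 genes tested were higher in YFP+ cells and 3050 were lower (24.3% and 19.5% of those tested, edgeR's quasi-likelihood test with batch as a block, Benjamini-Hochberg adjusted). The median log2 fold change of all genes was -0.01. Together 6855 genes were called, and 1343 and 1423 were without the total library of scbatch1 and scbatch2, 3807 and 1779 without the YFP+ library of scbatch1 and scbatch2, and 1620 without the block. With cells summed in this way, fewer cells of a type and less RNA per cell cannot be told apart. An exact permutation test of 2 against 2 libraries for any single value could not go below p = 0.333. The 12 genes with the largest called increase included 3 Ig heavy chain genes and members of the GC, memory and PC lists. Each of them was more abundant in both YFP+ than in both total libraries.

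Among them was S1pr2, a receptor that keeps B cells inside the GC. It was at 34.9 and 45.7 CPM in YFP+ and at 2.38 and 1.88 CPM in total B cells, a log2 fold change of 4.21 ± 0.20 (SE, n = 2 libraries per group, edgeR adjusted p = 4.76e-05). Gcsam was at 49.1 and 102 CPM against 3.69 and 2.77 CPM (4.43 ± 0.46), and Nuggc at 67.6 and 121 CPM against 6.54 and 3.73 CPM (4.14 ± 0.58). The adjusted p of Nuggc was 0.0312 by edgeR, and the call was lost without the clusters named for other cell types (0.0719). All 11 genes of the GC list rose (median log2 fold change 3.93), from Bcl6 at 0.34 to Gcsam, beside 24.3% of all genes tested. Bcl6, the GC master regulator, had a UMI in 12.1% and 12.5% of YFP+ and 12.5% and 12.7% of total B cells at equal depth, and in 7.14% to 11.0% of Cd3-positive cells.

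Parm1, which led the memory B-like cluster, was at 43.2 and 21.7 CPM against 2.20 and 0.505 CPM (4.66 ± 0.26, edgeR adjusted p = 1.33e-04). Of the 5 memory genes 3 rose and none fell, beside 24.3% higher and 19.5% lower among all genes tested. Those that rose were Parm1, Nt5e (CD73) by 2.93 and Cd80 by 1.42. Cd80, a ligand of the T cell receptor CD28, was at 36.5 and 24.7 CPM against 14.3 and 8.76 CPM. Pdcd1lg2 was at 33.1 and 25.3 CPM against 34.7 and 45.5 CPM and did not pass the test.

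Of the 9 PC genes 8 rose (median 2.38), beside 24.3% of all genes tested. Slpi was at 393 and 1652 CPM against 19.4 and 65.0 CPM (4.51 ± 0.13). Tnfrsf17, the receptor BCMA that sustains PCs, was at 24.6 and 28.2 CPM against 1.71 and 2.98 CPM (3.51 ± 0.18), while the other BAFF and APRIL receptors, Tnfrsf13b at -0.09 and Tnfrsf13c at 0.01, did not pass. Jchain, which joins IgA and IgM into polymers, was at 5913 and 5825 CPM against 553 and 605 CPM (3.34 ± 0.09). Irf4 was the PC gene that was not called, at 199 and 167 CPM against 199 and 221 CPM. The other genes of the 12 were H1fx (4.14), Basp1 (4.13) and Gatm (3.95).

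**Figure D2:**
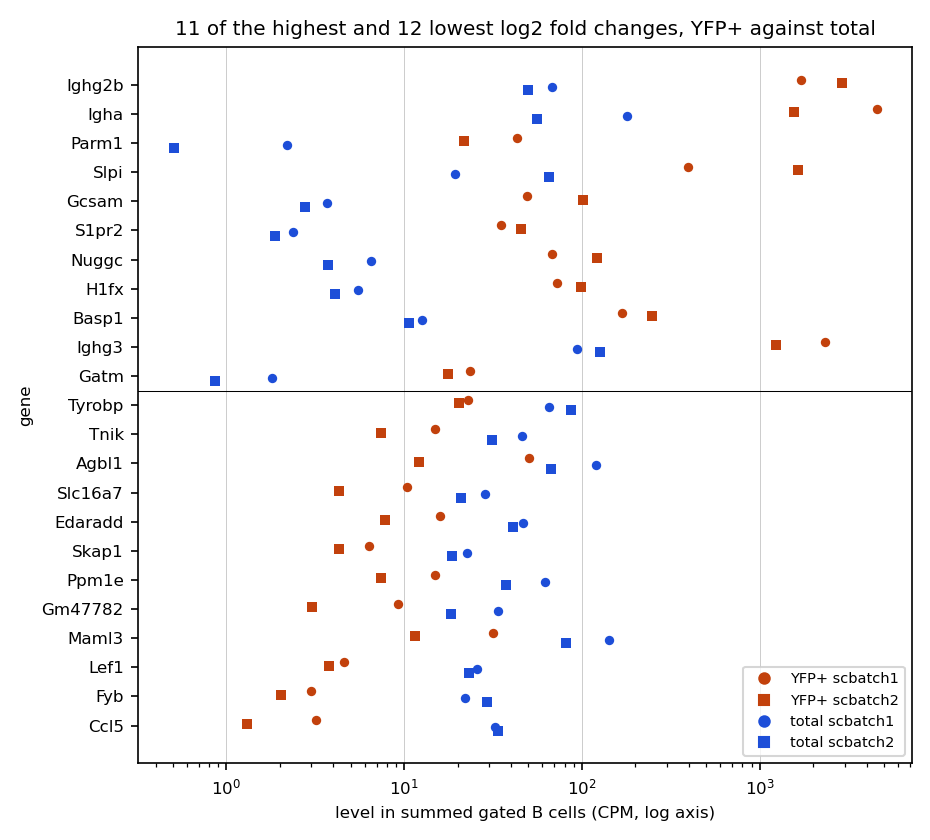
Level in summed gated B cells (CPM, log axis) of 11 of the 12 genes with the highest and the 12 with the lowest called log2 fold change, with 1 point per library, red for YFP+ and blue for total, circles for scbatch1 and squares for scbatch2. For each of the 23 genes both YFP+ points lie on the same side of both total points, as for S1pr2 at 34.9 and 45.7 CPM against 2.38 and 1.88 CPM.

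Of the switched heavy chain constant genes, Ighg2b, Igha and Ighg3 rose in the marked cells, and Ighg1, Ighg2c and Ighe did not pass the test. Ighg1 (chr12:113325240-113330523), the gene whose transcription drives Cre, was at 338 and 1694 CPM in YFP+ and at 3.06 and 1.71 CPM in total B cells. Both YFP+ libraries were far above both total libraries, but the size differed between batches, with log2 differences of 6.79 in scbatch1 and 9.95 in scbatch2, and the fold change of 8.28 ± 1.61 did not pass (edgeR adjusted p = 0.141). It passed without the batch block (0.00376) and in DESeq2 (1.09e-09). Ighg2b was at 1713 and 2903 CPM against 67.6 and 49.8 CPM (5.26 ± 0.46, edgeR adjusted p = 0.0117), and lost its call without the clusters named for other cell types (0.099).

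Igha was at 4557 and 1565 CPM against 179 and 55.6 CPM (4.74 ± 0.10, edgeR adjusted p = 1.61e-06). Ighg3 was at 2327 and 1231 CPM against 93.3 and 126 CPM (3.96 ± 0.51, edgeR adjusted p = 0.0282). Its call was also lost without the other-cell clusters (0.062). Ighg2c was at 648 and 2077 CPM against 96.1 and 66.9 CPM and passed without the block (0.00825) but not with it (0.191). These 5 genes were higher in YFP+ than in total cells in both batches, with Igha and Ighg3 higher in scbatch1 and Ighg1, Ighg2b and Ighg2c higher in scbatch2.

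Ighd, which mature unswitched B cells co-express with Ighm, moved the other way, at 236 and 223 CPM against 677 and 827 CPM (-1.70 ± 0.12, edgeR adjusted p = 9.30e-05). Ighm itself was at 12049 and 6333 CPM against 4013 and 4098 CPM and did not pass (1.11, edgeR adjusted p = 0.0994). Ighe was at 14.2 CPM in both YFP+ libraries and at 0.135 and 58.8 CPM in total libraries, so a single total library set its direction. Among light chains, Igkc rose by 2.35, Iglc1 by 1.82 and Iglc2 by 0.53, and Iglc3 was at 0.06 without passing. Ig genes took 8.63% and 7.37% of the UMIs of YFP+ B cells and 2.09% and 2.35% of those of total B cells.

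Counted by cell, each cell was thinned to 2000 UMIs and typed by its most abundant constant gene at 3 UMIs or more. Typing by the constant gene alone cannot tell a switched cell from one that transcribes a constant gene without a switch. Of YFP+ B cells, 847 of 8309 and 1734 of 10958 were typed as switched (10.2% and 15.8%, exact 95% binomial intervals 9.55% to 10.9% and 15.1% to 16.5%). In total B cells 12 of 5455 and 27 of 6842 were typed as switched (0.220% and 0.395%, intervals 0.114% to 0.384% and 0.260% to 0.574%). Among Cd3-positive cells, which should make no Ig, 0 of 235, 0 of 42, 0 of 1750 and 0 of 1673 were typed as switched in the 2 YFP+ and the 2 total libraries. The exact 95% intervals of these shares reach up to 1.56%, 8.41%, 0.211% and 0.220%. Without thinning, the mean shares of switched cells were 21.3% and 0.506%.

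IgM was still the commonest isotype of the marked cells: 67.5% and 50.7% of YFP+ B cells were typed as Ighm, against 72.0% and 76.2% of total B cells. Cells with under 3 UMIs of every heavy chain constant gene, or with a tie, took no type but stayed among the cells counted. A lower Ighm share can thus come with more switched or more untyped cells, which were not separated. Among Cd3-positive cells, Ighm typed 4.26% in the YFP+ library of scbatch1 and 1.37% and 2.81% in the total libraries. Ighg1 was the isotype of 1.72% and 3.97% of YFP+ cells, Ighg2b of 2.37% and 5.69% and Igha of 2.76% and 1.97%. Most gated cells of the YFP+ libraries were thus not typed as IgG1 at this depth. Ighd typed 3.94% and 3.8% of YFP+ and 10.8% and 9.84% of total cells.

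The cells typed as switched were concentrated in some classes. PC-like YFP+ cells were typed as switched in 46.5% and 73.2%, memory B-like in 25.2% and 34.2% and GC B-like in 10.8% and 12.1% of cells. In follicular B-like YFP+ cells it was 1.14% and 2.11%, and in marginal zone B-like cells 0.740% and 1.77%. These shares are of all cells of a class, untyped cells included. Of GC B-like YFP+ cells of scbatch1, 50.5% were typed as Ighm and 0.125% as Ighd. Those typed as neither of these nor as switched took no type.

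Cd3-positive cells of the YFP+ libraries also held more Ig RNA. These cells, of which there were 239 and 42 in YFP+ and 1764 and 1686 in total libraries, had Igkc at 1484 and 1245 CPM against 162 and 193 CPM. They held Ighg1 at 12.5 and 84.6 CPM against 3.16 and 0.474 CPM, and Igha at 138 and 30.2 CPM against 2.28 and 0.569 CPM. The gated B cells of the same YFP+ libraries held Ighg1 at 338 and 1694 CPM and Igha at 4557 and 1565 CPM. These levels were above those of the Cd3-positive cells in each. At equal depth, 8.36% and 18.0% of YFP+ gated B cells had an Ighg1 UMI. Among Cd3-positive cells of these libraries, 4 of 235 (1.70%) and 6 of 42 (14.3%) had one. The exact binomial interval of the scbatch2 share, 5.43% to 28.5%, holds the B cell share. In total libraries, 0.678% and 0.205% of gated B and 0.686% and 0.0598% of Cd3-positive cells had one. The part of RNA from outside the cell was not tested.

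**Figure D3:**
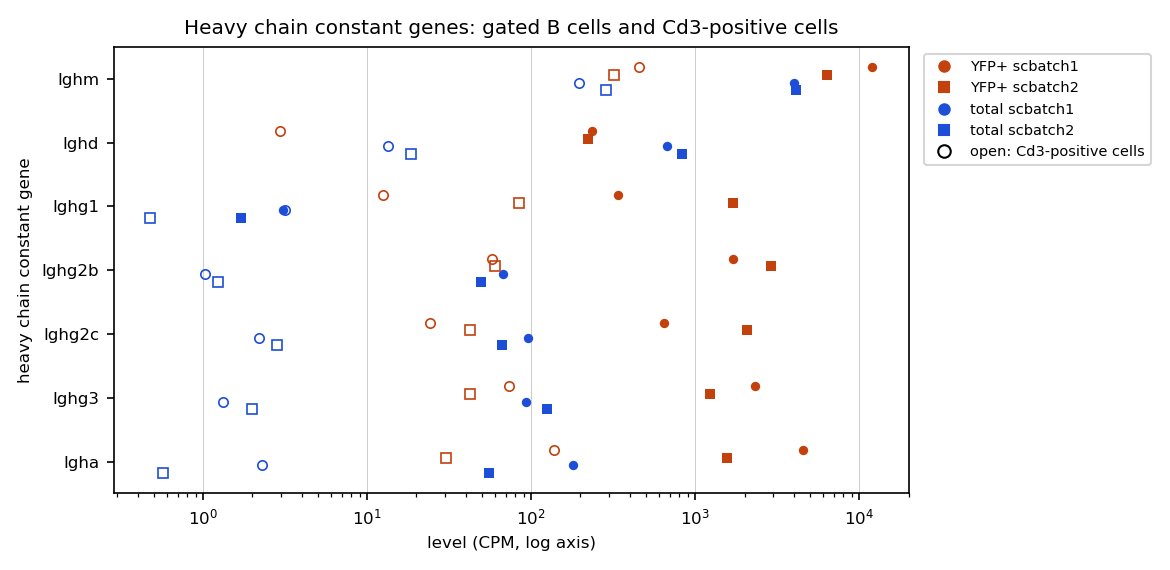
Level (CPM, log axis) of 7 heavy chain constant genes in gated B cells (filled) and in Cd3-positive cells without gate genes (open), by library, red for YFP+ and blue for total, circles for scbatch1 and squares for scbatch2. Switched genes such as Ighg2b reach 1713 and 2903 CPM in YFP+ B cells, above 67.6 and 49.8 CPM in total B cells, and Cd3-positive cells of YFP+ libraries hold 57.4 and 60.5 CPM of it.

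Among the 12 genes that fell furthest were Lef1 and Maml3. Lef1, a transcription factor of immature lymphocytes, was at 4.6 and 3.8 CPM against 25.7 and 23.2 CPM (-2.54 ± 0.13, edgeR adjusted p = 3.60e-05). Maml3, a co-activator of Notch, was at 31.5 and 11.51 CPM against 142 and 81.8 CPM (-2.49 ± 0.17). Sox4, an immature lymphocyte gene of the transitional list, was at 0.793 and 0.421 CPM against 11.2 and 13 CPM (-4.28). All 6 follicular genes fell (median -1.15), among them Fcer2a (CD23) at 71.7 and 115 CPM against 162 and 287 CPM. Of the marginal zone genes 5 of 7 fell (median -0.77), among them Cr2 (CD21) by 1.43 and Cd1d1 by 1.24, and S1pr3 at -0.41 and Cd9 at -0.34 did not pass. Of the interferon-response genes 6 of 8 fell (median -1.11). As 19.5% of all genes tested were called lower and 24.3% higher, the counts of these lists are a description. The remaining lowest genes were Gm47782, Ppm1e, Edaradd, Slc16a7, Agbl1 and Tnik, between -2.20 and -1.84.

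Ccl5 was at 3.21 and 1.31 CPM against 32.5 and 33.6 CPM (-3.95 ± 0.39), and Fyb, Skap1 and Tyrobp fell by 3.35, 1.96 and 1.80. Ccl5, Fyb and Tyrobp are genes of T, NK or myeloid cells. Skap1, also a T cell gene, was among the 10 leading genes of a marginal zone B-like cluster at resolution 1.5. The 5 NK genes summed to 6.57 and 7.50 CPM in YFP+ and 25.3 and 37.6 CPM in total B cells, with 4 lower, and Ncr1 at 0.122 and 0.0227 against 2.56 and 3.68 CPM. Of the 8 T cell genes 6 were lower and 1, Cd28, was higher. Their sum was 47.9 and 50.0 CPM against 47.6 and 62.1 CPM. Of 7 myeloid genes tested 1 was lower, with sums of 70.8 and 15 against 92.5 and 104 CPM. Of 5 dendritic cell genes 3 were lower and Flt3 was higher, and of 6 erythroid genes 1 was lower, with sums of 70.3 and 59.2 against 98.7 and 254 CPM. These counts stand beside 24.3% higher and 19.5% lower among all genes tested and are a description. Without the clusters named for NK, myeloid and dendritic cells, the changes were -3.11 for Ccl5, -1.92 for Fyb, -1.87 for Skap1 and -1.10 for Tyrobp, each still called, and Lef1 was at -2.57.

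Proliferation genes rose as a block. All 24 genes of the cell cycle list were higher in YFP+ cells, beside 24.3% of all genes tested. Their median log2 fold change was 2.94, with a range of 1.56 (Mcm4) to 3.49 (Ccnb2). Mki67 was at 623 and 532 CPM against 90.5 and 46.3 CPM (3.15 ± 0.20, edgeR adjusted p = 2.03e-04), and 19.9% and 23.9% of YFP+ cells had a Mki67 UMI at equal depth against 2.75% and 1.42% of total B cells and 0.837% to 2.38% of Cd3-positive cells. All 6 genes of a shorter list used to mark cycling cells, each also in the longer one, rose (median 3.20). Ccnb2, a mitotic cyclin, was at 73.4 and 152 CPM against 11.2 and 7.60 CPM. Cdc20, an activator of the anaphase-promoting complex, was at 60.8 and 111 CPM against 9.22 and 6.93 CPM.

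Since these genes moved together, the promoter windows of 2 of them are shown (300 bases around the start site, RefSeq, GRCm38.p6), with capitals marking TTTGAA, known as the CHR element of cell cycle promoters, and CCAAT, on either strand. They are the members with the largest fold change that have 1 window and hold TTTGAA, with members on 1 chromosome passed over.
Ccnb2, chr9:70421505-70421804, minus strand: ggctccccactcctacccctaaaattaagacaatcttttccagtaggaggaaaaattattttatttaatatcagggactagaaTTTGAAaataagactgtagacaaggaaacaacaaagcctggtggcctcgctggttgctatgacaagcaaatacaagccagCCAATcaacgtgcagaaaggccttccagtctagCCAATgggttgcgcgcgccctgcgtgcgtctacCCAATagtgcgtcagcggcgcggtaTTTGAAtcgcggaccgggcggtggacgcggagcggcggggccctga
Cdc20, chr4:118437294-118437593, minus strand: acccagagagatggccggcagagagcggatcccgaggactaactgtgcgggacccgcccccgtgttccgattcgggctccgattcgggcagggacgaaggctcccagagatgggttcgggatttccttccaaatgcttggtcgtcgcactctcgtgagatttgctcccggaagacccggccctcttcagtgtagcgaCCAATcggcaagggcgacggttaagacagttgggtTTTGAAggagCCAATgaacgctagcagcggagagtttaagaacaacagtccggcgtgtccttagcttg
The table held windows for 20 of the 24 genes. Of these genes 8 held TTTGAA (40%) and 16 held CCAAT (80%) on either strand, against 20.2% and 41.1% of all 27025 genes with a window. The motifs were chosen after the expression values were seen, and a match is a description of the letters only.

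Genes of the switch and hypermutation machinery rose in 9 of 11 cases (median 0.96). Among them were the mismatch repair exonuclease Exo1, at 13.8 and 20.1 CPM against 2.99 and 3.13 CPM (2.44 ± 0.17), Hmces (2.16), the translesion polymerase Polh (2.10) and Ung, a uracil glycosylase (1.54). Trp53bp1 at -0.32 and Apex2 at 0.21 did not pass. Of the IL-4 receptor list 3 of 10 genes rose and 5 fell (median -0.23). The receptor chain Il4ra was at 30.2 and 29.96 CPM against 52.5 and 56.5 CPM (-0.86 ± 0.10), Stat6 fell by 0.68, and Socs1 and Bcl2l1 rose by 1.24 and 1.13. IL-4 signalling genes thus did not move one way, beside 24.3% higher and 19.5% lower among all genes tested.

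Receptors that place B cells in the follicle and recirculate them fell. Of 14 positioning genes 10 fell and 2 rose (median -0.63), beside 19.5% lower and 24.3% higher among all genes tested. Ccr7, which guides cells to T cell zones, was at 108 and 106 CPM against 215 and 234 CPM (-1.07), and Cnr2 fell by 1.06 and S1pr1 by 0.98. Those that rose were S1pr2 and Cxcr3, the latter at 23.0 and 62.0 CPM against 3.33 and 4.55 CPM (3.29 ± 0.25). Cxcr3 had a UMI in 3.51% and 6.80% of YFP+ B cells, against 0.312% and 0.438% of total B cells and 4.34% to 7.53% of Cd3-positive cells, which also express it.

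Of 6 T-bet+ genes 3 rose and none fell: Cxcr3, Tbx21 by 1.91 and Itgam by 0.96. Of 5 B1 genes 4 rose (Ctla4, Spn, Bhlhe41 and Plscr1) and Cd5 fell by 0.84. Ctla4, an inhibitory receptor, was at 138 and 123 CPM against 34.4 and 37.9 CPM (1.85 ± 0.12). Of 5 transitional genes, Cd24a rose by 0.58 and Sox4 fell. Of 7 activated B genes 4 rose (Nme1, C1qbp, Mir155hg and Egr2, at 0.52 to 1.06) and 3 fell (Egr3, Cd83 and Myc). Immediate early genes, which respond within minutes to receptor signals, fell in 6 of 9 cases (median -0.50), among them Egr3 by 1.00 and Nr4a1 by 0.76. Egr1 and Egr2 rose by 0.62 and 0.52. Of 8 genes that respond to tissue dissociation, Jun and Fosb rose by 0.73 and 0.42 and Junb fell by 0.92. Counts of such short lists stand beside 24.3% higher and 19.5% lower among all genes tested.

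Antigen presentation genes barely moved. Of 12 MHC II pathway genes none rose and 2 fell, H2-Ob by 0.44 and H2-Oa by 0.32 (median -0.10). Cd74, the invariant chain, was at 6748 and 8713 CPM against 7487 and 9640.5 CPM and did not pass (-0.15 ± 0.07, edgeR adjusted p = 0.103). Of 9 costimulatory and adhesion ligands 3 rose (Cd70, Cd80 and Icam1) and 3 fell (Icosl by 0.98, Cd274 by 0.43 and Cd40 by 0.40). For comparison, 24.3% of all genes tested were called higher and 19.5% lower, so the counts of this paragraph are a description. Cd70 was at 1.21 and 0.887 CPM against 0.135 and 0.0241 CPM. Of 11 co-receptors of the B cell receptor 5 fell (Cr2, Lair1, Cd5, Siglecg and Ptpn6) and 2 rose (Cd81 by 0.49 and the inhibitory Fc receptor Fcgr2b by 0.45).

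Among 18 B lineage transcription factors 9 rose and 5 fell (median 0.18). The PC regulators Xbp1 and Prdm1 rose by 2.38 and 1.85 and the co-activator Pou2af1 by 0.86. Foxp1, Klf3, Ets1, Ebf1 and Pax5, factors of resting or committed B cells, fell by 0.65 to 1.17, and Foxp1 was at 1041 and 594 CPM against 2072 and 1510.4 CPM. Of 14 survival and death genes 8 rose (median 0.63), including the pro-death genes Bak1 (1.17), Bbc3 (1.12) and Bad (1.04). Bcl2, an inhibitor of death, was the only one to fall, by 0.97. Bcl2l1, also an inhibitor of death, rose, as given with the IL-4 receptor list. These genes are examples, and no tendency to survival or death is read from them. Of 9 Toll-like receptor genes Tlr1, Tlr7 and Tlr4 fell and Myd88 rose by 0.54. Since 24.3% of all genes tested were called higher and 19.5% lower, the counts of these lists are a description.

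**Figure D4:**
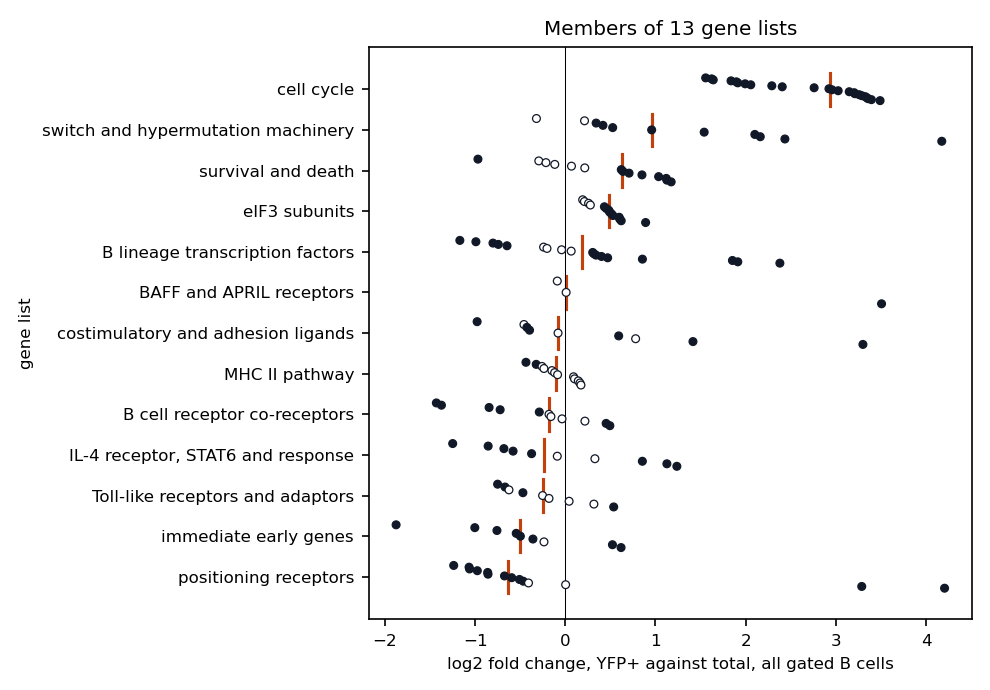
Log2 fold change of YFP+ against total in all gated B cells for each tested member of 13 gene lists, filled where called (edgeR adjusted p under 0.05), with the list's median as a red bar. All 24 cell cycle genes lie above 1, while 10 of 14 positioning receptors are called below 0 and MHC II genes lie between -0.44 and 0.17.

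Eif3e (chr15:43250058-43282719), which is not floxed in these mice, was at 226 and 315 CPM in YFP+ and at 192 and 252 CPM in total B cells. Within each batch the YFP+ library was the higher, while the groups overlapped across batches. The fold change of 0.28 ± 0.10 did not pass (edgeR adjusted p = 0.06). It passed with all 8 libraries in the fit (0.0137) and at equal depth (0.0207). Of the 14 eIF3 genes 10 rose and none fell (median 0.49), from Eif3d at 0.43 to Eif3l at 0.89. With 24.3% of all genes tested called higher and 19.5% lower in sums of unlike mixtures of cells, that count is a description. Eif3l was at 64.9 and 116 CPM against 37.1 and 59.2 CPM. At equal depth Eif3e had a UMI in 35.3% and 42.0% of YFP+ and 32.6% and 39.5% of total B cells.

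Within a class, far fewer genes were called between sorts than in the sum of all cells, but class sums also held far fewer cells. In 9 classes with at least 20 cells in every library, genes were tested on class sums. Total libraries held 50 and 33 GC, 40 and 29 PC and 59 and 42 T-bet+ B-like cells. YFP+ libraries held 177 and 43 transitional B-like cells. The part of cell number in the counts was not tested, so a low count does not show that cells were alike. Follicular B-like cells had 734 of 11904 genes called (6.17%), B1-like 303 (2.98%), interferon-response 153 (2.01%), activated 163 (1.81%) and marginal zone 193 (1.73%). PC-like had 105 (0.939%), GC B-like 67 (0.563%), T-bet+ B-like 58 (0.557%) and transitional 9 of 10253 (0.0878%). These counts rest on the batch block. Without it they were 0 to 17, with 0 in follicular and T-bet+ B-like cells, where 294 and 200 genes had an unadjusted p under 0.05. DESeq2 gave 2 to 72. Leaving out any 1 library also gave fewer genes, but those fits had no block either. The counts also depend on the clustering: at a resolution of 0.5, T-bet+ B-like cells had 1368 genes called and GC B-like cells 25. Memory B-like cells were not tested, with 16 cells in a total library.

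Between GC B-like cells of the 2 sorts, none of the 11 GC genes (median 0.07) and none of the 24 cell cycle genes (median 0.02) was called by edgeR. S1pr2 was at 105 and 89.9 CPM in YFP+ and 87.6 and 99.2 CPM in total GC B-like cells (0.08 ± 0.15). GC and cell cycle genes also set these clusters apart, so their likeness within the class is a description. The total libraries held 50 and 33 such cells, which limits what could be detected. Switched Ig genes differed. Ighg1 was at 80.7 and 199 CPM in YFP+ and 2.11 and 7.87 CPM in total GC B-like cells (4.82 ± 0.30), Ighg2c rose by 3.68 and Igha by 3.32. In Cd3-positive cells Ighg1 was at 12.5 and 84.6 CPM in YFP+ and 3.16 and 0.474 CPM in total libraries. The part of RNA from outside the cell was not tested. Within GC B-like cells, Impact and Parm1 rose by 1.58 and 1.57. Among the lower genes were Ccr7 (-1.21), and Gzma, Ccl5 and Ccl4, which sat mostly in 1 total library: Ccl5 was at 84.5 CPM in scbatch1 and 7.87 CPM in scbatch2, against 0.807 and 0.0953 CPM in YFP+ cells.

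PC-like cells of the 2 sorts differed in heavy chain genes. Ighg1 was at 1289.7 and 6821 CPM in YFP+ and at 7.53 and 0 CPM in total PC-like cells (edgeR adjusted p = 0.00166), from 40 and 29 cells in the total libraries. Igha was at 20585 and 6664 CPM against 6749 and 3130.2 CPM (1.35 ± 0.28), and Ighm at 45147 and 20549 CPM against 69420.4 and 76595 CPM (-1.26 ± 0.31). Ighg2c and Ighg3 did not pass. The share of PC-like cells typed as switched was 46.5% and 73.2% in YFP+ against 5 of 40 and 8 of 29 cells (12.5% and 27.6%) in total libraries. Ccr10, a receptor of mucosal PCs, was at 29.4 and 23.8 CPM against 1.88 and 6.21 CPM (2.84 ± 0.46). Rgs2, Rgs1 and Neil1 rose by 1.49, 1.43 and 1.40, and Egr2, Myof, Hist1h4b, Gm48370 and Maml3 fell by 1.57 to 1.70.

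Follicular B-like YFP+ cells, still 22.8% and 23.3% of the gated YFP+ cells, had 1 of 6 follicular genes lower (median -0.15). They had higher levels of 7 of 10 GC genes tested (median 1.41), 4 of 5 memory genes (1.35) and 11 of 24 cell cycle genes (0.70), and of 4 of 8 immediate early genes tested. Rgs1, a regulator of chemokine signalling, was at 17.7 and 44.8 CPM against 10.2 and 13.9 CPM (1.28 ± 0.12). Gm4258, Cecr2, Serinc5, Cdk6 and Pde2a fell by 0.73 to 0.96. All but 1 of 8 T cell genes were lower (median -2.55). Of all 11904 genes tested in this class, 472 were called higher and 262 lower, and 0 were called without the block. The counts of these lists are thus a description. How much RNA from outside the cell entered these values was not tested. The 2 clusters of this class were unequally filled in the 2 sorts, and depth differed, as given above.

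Switched Ig transcripts were also higher within follicular B-like YFP+ cells. Igha was at 159.8 and 59.9 CPM against 5.07 and 3.87 CPM (4.5 ± 0.12), beside 138 and 30.2 CPM in the Cd3-positive cells of the same YFP+ libraries. Ighg2b was at 73.5 and 115 CPM, beside 57.4 and 60.5 CPM. In marginal zone B-like cells Igha was at 135 and 47.1 CPM and Ighg1 at 25.6 and 69.9 CPM in YFP+ cells, the latter beside 12.5 and 84.6 CPM in Cd3-positive cells. The part of RNA from outside the cell in these differences was not tested. The same Ig genes led the higher genes of the activated, interferon-response and transitional classes.

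Beside the Ig genes, some transcripts were lower in the marked cells of these classes. Marginal zone B-like YFP+ cells had lower Maml3 (-0.75), Ppm1e (-0.74), Tnik (-0.76) and Wls (-0.92), and lower Hbb-bs, a red cell gene. Activated B-like YFP+ cells had lower Myb, at 5.01 and 7.07 CPM against 34.0 and 38.5 CPM (-2.41 ± 0.34), and Lef1 (-2.40). B1-like YFP+ cells had higher Trerf1 (1.70) and lower 2310067P03Rik (-1.79), Lef1 (-1.17) and Ptpn14 (-1.05). There 5 of 12 MHC II genes were higher (median 0.25), beside 195 higher and 108 lower of 10163 genes tested in that class. In interferon-response cells, Hbb-bs was at 1881 CPM in 1 total library and at 21.7 CPM in the other. Among T-bet+ B-like cells, Ighg1 was at 34.0 and 167 CPM against 3.88 and 19.8 CPM (3.03 ± 0.34). In Cd3-positive cells it was at 12.5 and 84.6 CPM in YFP+ and 3.16 and 0.474 CPM in total libraries. Of T-bet+ B-like YFP+ cells of scbatch1, 1 of 900 was typed as Ighg1. The part of RNA from outside the cell was not tested. In the T-bet+ B-like class, Spon1 was at 78.4 and 10.7 CPM against 14.2 and 0 CPM (2.54 ± 0.39), while Ifi214 fell by 1.33 and G2e3 by 1.28.

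Of the 12 genes highest in the sum, 10 of 11 tested were called in the same direction within follicular B-like cells, 5 of 12 within GC B-like and 4 of 12 within PC-like cells. Of the 12 lowest, 8 of 12 tested were called in follicular B-like, 8 of 11 in B1-like, 7 of 12 in marginal zone B-like and none in transitional B-like cells. Over all genes tested, 6.17% were called in follicular B-like, 2.98% in B1-like, 1.73% in marginal zone B-like, 0.939% in PC-like and 0.563% in GC B-like cells. The genes were chosen by their change in a sum that holds these same cells, which favours the same direction, so the counts are a description. S1pr2, H1fx and Nuggc, which differed by over 4 on the log2 scale in the sum, were between -0.04 and 0.08 within GC B-like cells.

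**Figure D5:**
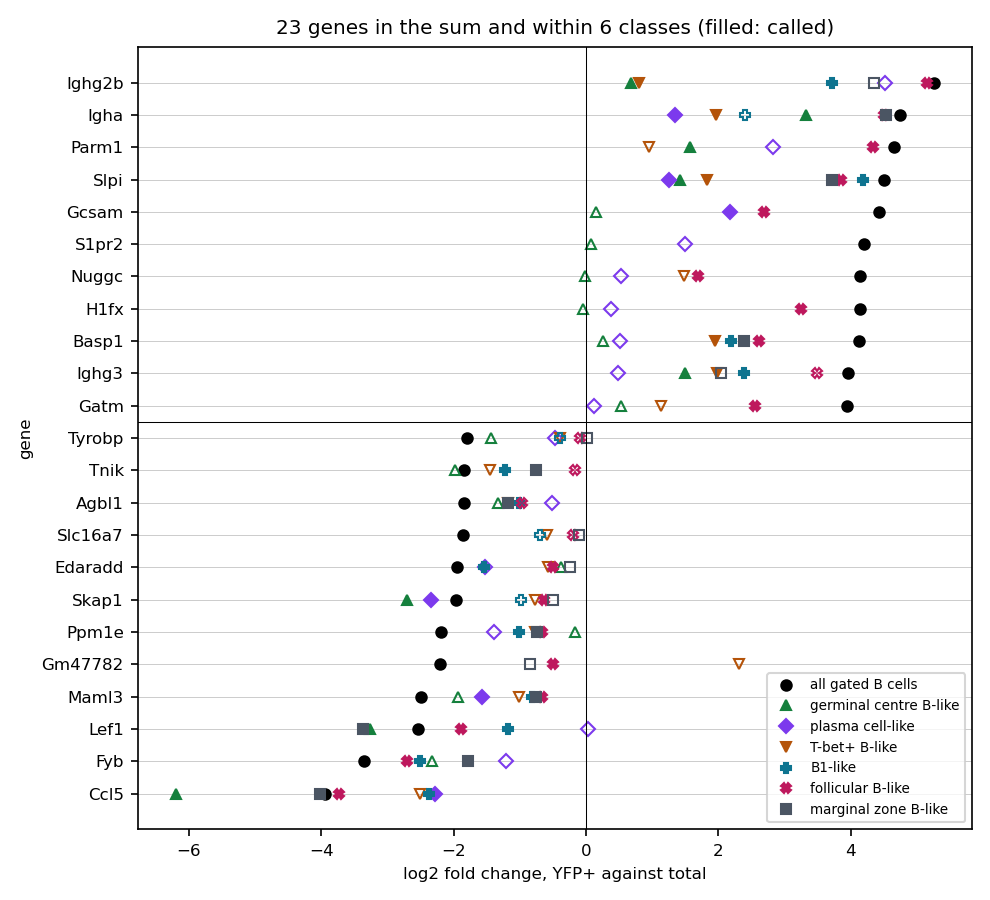
Log2 fold change of YFP+ against total for 23 of the genes of largest change in the sum of all gated B cells (black circles) and within 6 classes (coloured symbols), filled where called by edgeR. S1pr2 is at 4.21 in the sum and at 0.08 within GC B-like cells.

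The sort difference itself depended on genotype for part of these genes. With the cKO libraries added, 2360 of 16506 genes (14.3%) had a sort difference in cKO mice unlike that in controls. This was edgeR's quasi-likelihood test of the interaction, with the mouse pool (batch by genotype) as a block. Of the 33 named genes given here, 13 were among those called. Of these 33 genes, 23 were chosen for a large sort difference in the controls, which is one side of this contrast and favours a call of opposite sign, so nothing is read from that share. Lef1 is an example: in cKO mice it was at 35.7 and 33.8 CPM in YFP+ and 18.7 and 18.0 CPM in total B cells, the opposite order to the controls. The cKO scbatch1 pool held both Xist and Y-linked transcripts, while the other pools held Xist at under 1 CPM, so the sex of the mice moved with genotype in that batch. Without the block 107 genes were called. Fewer genes than in the main fit were also called with any 1 of the 8 libraries left out, but those fits had no block either. The part of the missing library and that of the block thus cannot be told apart.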

How the data were processed

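Single-cell libraries were made with the SeekOne DD 3′ kit from sorted live cells labelled as spleen. The authors deposited a matrix of whole UMI counts per gene and cell for each library, and their processing notes name GRCm38 and mm10. No aligner or annotation is named in the sources used here. Coordinates were read from a GENCODE annotation of GRCm38. The members and gene lists were chosen with earlier results of these data known.

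From the counts, cells were gated and summed per library. Sums were tested with edgeR 4.0.16 in R 4.3.3 (TMM, filterByExpr, robust quasi-likelihood fit, prior count 2, batch as a block, adjusted p under 0.05), and DESeq2 1.42.0 was an alternative. SEs are the unshrunk log2 fold change over the root of F. The series' design text describes spleens pooled per batch, from which total and YFP+ cells were sorted, and same-batch libraries deviated together from their group means (correlation 0.682 over 12576 genes), so the block was kept. With 2 pools per group and batch as a block, p-values measure how the YFP+ against total difference varied between the 2 batches. They do not measure the spread of levels between pools, which the block takes up. With so few libraries, the variance is moderated over all genes or classes. A small p-value thus does not rest on the spread of that gene or class alone.

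Cells were clustered (Leiden, resolution 1, 2000 variable genes, 30 components, 20 neighbours, centred within batch) without Ig, T cell receptor, ribosomal, mitochondrial, sex-linked and gate genes. Clusters were named by marker lists with a margin of 0.2 set after the clusters were seen. No doublet caller was run. An alternative left out deep cells and cells with UMIs of other cell types. Classes with at least 20 cells in each library were tested. Cd3-positive cells had at least 3 Cd3 UMIs and none of the gate genes. Shares of cells used 2000 UMIs per cell, with exact Clopper-Pearson 95% intervals, also for a share of 0, which cover counting error only.

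Named genes were the 12 highest and 12 lowest called log2 fold changes that went one way in both batches with a mean of at least 20 CPM in the higher group (V, D, J and gate genes left out), all constant genes, Eif3e, up to 6 members of each function list, and 5 genes per direction in each class by the first rule. Others were named from the lists, after their values were seen. Some genes that these rules name are not reported here. Promoter windows are RefSeq, GRCm38.p6. Alternatives covered the block, scaling, the count filter, the gate, depth, clustering and each library left out. The fits with a library left out also had no block.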

Additional observations from a re-analysis of the deposited data

Results flagged for a closer look

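For 13 of 33 named genes the difference between YFP+ and total B cells was not the same in cKO and control mice (edgeR's quasi-likelihood test of the interaction, adjusted over all genes). Of the 33 genes, 23 were chosen for a large difference in the controls, which favours an interaction of the opposite sign, so the number and the signs are a description. The log2 difference in cKO mice minus that in controls was -4.83 for Slpi, -4.66 for Gcsam, -4.17 for S1pr2, -3.98 for H1fx, -3.68 for Basp1, -2.64 for Gatm and -2.32 for Igkc. It was 1.08 for Maml3, 1.36 for Gm47782, 1.40 for Tnik, 1.47 for Ighd, 1.51 for Ppm1e and 3.45 for Lef1. Slpi was at 395 and 1055 CPM in cKO YFP+ and 430 and 1494 CPM in cKO total B cells, and S1pr2 at 7.71 and 6.23 against 5.53 and 8.16 CPM. The cKO scbatch1 pool held mice of both sexes by its Xist and Y-linked transcripts, and its part in these values was not tested.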

How the results depend on the processing

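The replicate block, the batch (or, for the interaction, the mouse pool) shared by YFP+ and total cells, changed most counts. Without it, 1620 genes were called in all gated B cells (1610 of them also with it) and 107 for the interaction. Within classes it gave 3 genes in B1-like, 0 in T-bet+, 11 in activated, 0 in follicular, 2 in GC, 13 in interferon-response, 13 in marginal zone and 17 in PC-like cells. The marginal zone share then passed (-0.58, edgeR adjusted p = 0.0444) and Ighe turned to -1.05.

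Leaving out each library in turn gave 1343 to 3807 genes in all B cells, 0 to 239 for the interaction, 13 to 18 in B1-like, 2 to 6 in T-bet+, 12 to 22 in activated, 35 to 82 in follicular, 7 to 18 in GC, 8 to 32 in interferon-response, 24 to 40 in marginal zone, 18 to 85 in PC-like and 5 to 6 in transitional cells. None of these fits, for genes or for shares, kept the batch block, and each left 1 group with 1 library. Their values thus do not show the part of a missing library alone. Shares lay at -1.34 to -0.88 (activated), 1.08 to 1.39 (B1-like), -1.14 to -1.11 (follicular) and -0.72 to -0.45 (marginal zone). They lay at -5.54 to -3.14 (transitional), 4.71 to 5.61 (GC) and -2.20 to -1.34 (interferon-response). Ighe ranged from -2.04 to 6.45, with -1.02 and -1.04 without a YFP+ library, and Iglc3 ranged from -0.20 to 0.32, with -0.15 without the total library of scbatch1.

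DESeq2 gave 42 genes in B1-like, 2 in T-bet+, 12 in activated, 72 in follicular, 21 in GC, 8 in interferon-response, 26 in marginal zone, 11 in PC-like and 5 in transitional cells. Without the count filter there were 30 in T-bet+ and 346 in marginal zone cells. At resolution 0.5 there were 1368 in T-bet+, 25 in GC and 15 in interferon-response cells, and at 1.5 there were 38, 345 and 438 in T-bet+, follicular and marginal zone cells. Without deep cells and cells with other cell types' UMIs, 3591 genes were called in all B cells, 32 in B1-like, 75 in activated, 351 in follicular and 67 in interferon-response cells. Thinned to 2000 UMIs, 4551 genes were called and Ighe was at -0.39.

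Scaled by TMM over classes, shares changed by -0.41 (activated), -0.43 (follicular), 5.79 (GC), -1.08 (interferon-response), 0.11 (marginal zone) and -3.62 (transitional). At resolution 0.5 activated, interferon-response and transitional were at -1.12, -1.74 and -4.41 and lost their calls, and without centring activated, B1-like and follicular at -1.14, 1.15 and -1.15. Without deep and other-type cells, which ended the calls of the GC, transitional, follicular, activated and interferon-response classes, the shares were -0.61 (activated), -0.63 (follicular), 6.24 (GC), -1.07 (interferon-response), 0.27 (marginal zone), 0.28 (myeloid) and -3.75 (transitional). That filter left 3 and 0 total GC B-like cells. Mean switched shares were 19.7%, 5.55% and 21.3% of YFP+ and 0.434%, 0.145% and 0.506% of total B cells with at least 1 UMI, at least 10 UMIs and without thinning, against 13% and 0.307%. The cause of these shifts was not tested.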
